A study of Mus musculus with 4 samples.

Results

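The small nuclear RNAs (snRNAs) and their copies were read from the cortex transcriptome of APPswe/PS1ΔE9 and wild-type mice as the rows whose deposited type is snRNA. There were 50 such rows among 37539 transcripts, and each was the only transcript of its gene. GENCODE M21 (mouse build GRCm38) also classed all 50 as snRNA, out of 1385 snRNA genes that it annotates. Cortex was taken at 12 months from male mice on a C57BL/6 background kept under SPF conditions. The APP group was 2 double transgenic mice that carry human APP with the Swedish mutation and human PS1 lacking exon 9, both driven by the prion protein promoter, and the WT group was 2 mice without the transgenes. RNA was depleted of ribosomal RNA and sequenced strand-specifically, and the reads on each transcript were counted.

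The 4 libraries held between 28525117 and 43881196 counts. They are named APP.3, APP.4, WT.1 and WT.2 after their columns. The table is made of rows that reach 10 counts in at least 1 library, and 13 of the 50 snRNAs reached it in 1 library only, against 4.51% of all features after summing per gene. For 8 of them this was WT.1, the deepest library, and for 5 it was APP.4, against 2.19% and 1.02% of all features. Only 23 reached 10 counts in every library. App, counted at 77727 and 73975 in the APP libraries and 37675 and 32094 in the WT libraries, was higher in APP by 1.52 on the log2 scale (adjusted p = 2.11e-05). All 8 markers of cortical excitatory neurons were above 1 CPM (counts scaled to the size of the library, as in edgeR) in every library. They summed to 1285 and 1290 CPM in APP against 1473 and 1401 in WT. Summed marker levels were 1053 and 1169 CPM in APP against 651 and 655 in WT for 4 astrocyte genes, and 146 and 174 against 102 and 101 for 4 microglial genes. Oligodendrocyte markers summed to 1586 and 1400 CPM in APP against 1048 and 1157 in WT, and thalamic markers to 19.2 and 23.4 against 13.7 and 13.1. The widest gap was in hypothalamic markers, at 3.62 and 5.59 CPM in APP against 0.25 and 0.17 in WT. Striatal markers differed within the APP pair, with 113 CPM for APP.3 and 227 for APP.4 against 164 and 179 in WT, and the part of any of these in the results below was not tested.

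snRNAs are the short, uridine-rich RNAs of the nucleus around which the splicing machinery is built. U1 pairs with the 5′ splice site and U2 with the branch point, while U4, U5 and U6 join as a tri-snRNP that becomes the catalytic core. U11, U12, U4atac and U6atac do the same work for the rare minor introns, and U7 trims the ends of histone mRNAs. Most are made by RNA polymerase II and carry a ring of Sm proteins, whereas U6 and U6atac are made by RNA polymerase III and carry Lsm proteins. Mammalian genomes hold a few functional genes for each of them among many copies, many of which are retrotransposed and have diverged.

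The sequences below are GENCODE M21 transcripts, read 5′ to 3′ in DNA letters. The first pair shows the commonest U1 row and a copy that differs from it at 1 base, which is in capitals in both.

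Gm22068, chr11:87426716-87426879, + strand: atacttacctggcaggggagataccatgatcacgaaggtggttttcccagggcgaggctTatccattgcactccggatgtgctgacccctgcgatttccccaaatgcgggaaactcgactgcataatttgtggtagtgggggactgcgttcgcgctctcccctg
Gm22513, chr12:54696782-54696945, + strand: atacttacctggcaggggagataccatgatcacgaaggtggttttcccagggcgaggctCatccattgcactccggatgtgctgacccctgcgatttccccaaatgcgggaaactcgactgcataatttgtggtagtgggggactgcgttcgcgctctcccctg

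The next 5 are the commonest U2 row, with the positions at which any of the other 4 differs in capitals, and those 4, with their differences from it in capitals.

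Gm24950, chr11:101641748-101641938, + strand: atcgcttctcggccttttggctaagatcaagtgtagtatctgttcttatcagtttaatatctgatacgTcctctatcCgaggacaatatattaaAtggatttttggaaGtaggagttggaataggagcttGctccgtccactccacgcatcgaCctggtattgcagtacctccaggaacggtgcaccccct
Gm23444, chr11:83271498-83271688, + strand: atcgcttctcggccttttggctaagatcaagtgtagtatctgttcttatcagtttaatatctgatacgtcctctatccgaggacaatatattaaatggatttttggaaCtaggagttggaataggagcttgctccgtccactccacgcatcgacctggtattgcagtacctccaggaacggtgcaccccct
Gm25813, chr8:52336915-52337105, - strand: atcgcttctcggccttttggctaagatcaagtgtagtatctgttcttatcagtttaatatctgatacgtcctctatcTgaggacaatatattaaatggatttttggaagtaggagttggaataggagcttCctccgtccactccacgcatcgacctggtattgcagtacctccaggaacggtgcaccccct
Gm25360, chr1:72226240-72226430, + strand: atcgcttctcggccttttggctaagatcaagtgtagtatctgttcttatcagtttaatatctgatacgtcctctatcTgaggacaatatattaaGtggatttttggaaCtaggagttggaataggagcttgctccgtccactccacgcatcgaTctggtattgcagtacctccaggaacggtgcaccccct
Gm25939, chr1:72255008-72255198, + strand: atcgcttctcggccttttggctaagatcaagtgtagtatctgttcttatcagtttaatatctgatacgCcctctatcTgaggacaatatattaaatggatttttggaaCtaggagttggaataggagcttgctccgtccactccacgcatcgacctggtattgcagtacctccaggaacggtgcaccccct

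The last set gives the 2 neighbouring rows read here as U4 from their letters, with their differences in capitals.

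Gm24407, chr5:115490254-115490394, + strand: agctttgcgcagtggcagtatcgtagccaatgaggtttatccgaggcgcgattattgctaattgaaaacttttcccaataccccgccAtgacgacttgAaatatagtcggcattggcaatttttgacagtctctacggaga
Gm24265, chr5:115489459-115489599, + strand: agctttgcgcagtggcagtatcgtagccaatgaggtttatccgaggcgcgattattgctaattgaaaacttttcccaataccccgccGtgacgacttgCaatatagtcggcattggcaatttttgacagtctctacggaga

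By similarity to the 10 named snRNAs of the annotation, 22 rows were U6, 9 were U1 and 8 were U2, and U7, U11 and U12 had 1 row each. No named reference was used here for U4, U4atac or U6atac, and the 8 remaining rows were left unassigned. No row was closest to the named U5 gene. The splice-site pairing letters ACTTACCTG were held by 4 of the 9 U1 rows, Gm22068, Gm22513, Gm23238 and Gm22042, and by 55 of 1383 annotated snRNA transcripts (3.98%). The branch-point pairing letters GTAGTA were held by all 8 U2 rows (51 of the 1383, or 3.69%). The ACAGAGA box, which faces the 5′ splice site, was held by all 22 U6 rows (583 of the 1383, or 42.2%). The Sm site was held as AATTTGTGG by the same 4 U1 rows (65 of the 1383, or 4.70%) and as ATTTTTG by 11 of the 50 rows (46 of the 1383, or 3.33%). These letters were searched on the transcript strand only and do not overlap one another in the sequences printed above.

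A handful of rows held nearly all snRNA counts. The 50 rows together held 77253 counts, and Gm22068, Gm24950 and Gm23444 took 93.2% of them. The median row had 58 counts over the 4 libraries, and 36 of the 50 rows had fewer than 100. U1 rows made up 50.2% of the snRNA counts and U2 rows 45.7%, while the 22 U6 rows made up 1.53%. These are shares of counts on the rows and no measure of how much of each snRNA the tissue held. The commonest U6 letters are carried by 43 annotated transcripts, of which 17 are rows, and reads placed on other copies are not included. How well RNAs of each length were captured was not tested. Per kilobase, the level was 1625 CPM for Gm22068, 796 for Gm24950, 503 for Gm23444, 37.3 for Gm24407 and 24.0 for Gm24265, and no other row except Gm22513, with 58.2, was above 10.

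**Figure D1:**
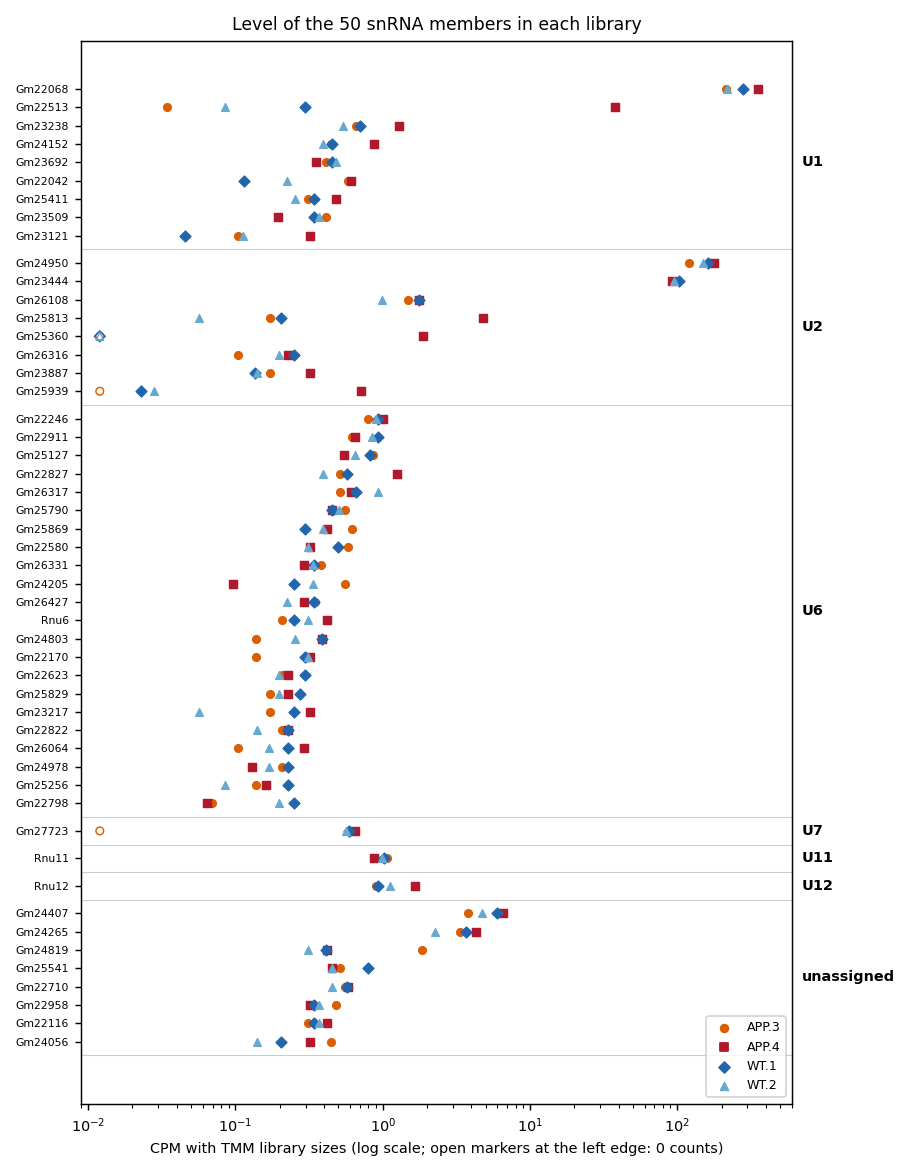
CPM of each of the 50 snRNA rows (log axis, 1 marker per library, grouped by family), with libraries at 0 counts drawn as open markers at the left edge. Gm22068, Gm24950 and Gm23444 lie near or above 100 CPM in all 4 libraries, and Gm22513, Gm25813, Gm25360 and Gm25939 have 1 library, APP.4, far to the right of the other 3.

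The snRNA share of counts was 0.0464% (APP.3), 0.0692% (APP.4), 0.0571% (WT.1) and 0.0484% (WT.2). Both WT values lay between the 2 APP values. In whole cortex, fewer cells of a type and less RNA per cell cannot be told apart. The mean share was 0.0578 ± 0.0161% in APP and 0.0527 ± 0.00620% in WT (SD, n = 2 each), with an exact two-sided permutation p of 1 where the smallest possible is 0.333. Small nucleolar RNAs, another class of short nuclear RNA, took 0.173% and 0.199% in the APP libraries and 0.178% and 0.170% in the WT libraries, again with APP.4 the highest. This was not particular to short nuclear RNA. Mitochondrial rRNA took 8.21% (APP.3), 11.2% (APP.4), 10.2% (WT.1) and 10.1% (WT.2), and protein-coding transcripts 72.4%, 68.9%, 71.5% and 71.3% in the same order. For microRNAs the highest library was APP.3. Without APP.4 the snRNA share in APP was 0.879 times that in WT, and without APP.3 it was 1.31 times.

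A quasi-likelihood test in edgeR over all 18386 features compared APP with WT, and a call needed an adjusted p below 0.05 together with a change of 1.5-fold or more. No snRNA row was called, while 162 features were called in all (0.881%). At an unadjusted p under 0.05 there were 6 of the 50, against 12.1% of all features. Among them, Gm25813, Gm25360 and Gm25939 reached 10 counts in APP.4 alone and Gm22042 in the APP libraries alone. Entry to the table thus fixes the direction of these rows in part, and their p-values are no independent support. In APP, 28 rows had a positive and 22 a negative fitted log2 fold change, with a median of 0.13 against -0.0011 over all features. The libraries of the 2 groups did not overlap for 10 rows, 5 higher and 5 lower in APP, against 42.7% of all features. The exact and likelihood ratio tests of edgeR each called 4 rows, Gm22513, Gm25813, Gm25360 and Gm22042, beside 1.93% and 2.13% of all features. All but Gm22513 were among the rows whose direction entry fixes in part. DESeq2 called 0 beside 1.1%, with 5 rows at an unadjusted p under 0.05 against 7.73% of all features. With transcripts in place of gene sums 1 row, Gm22513, was called beside 0.807% of transcripts. A fit without 1 library leaves a lone library in its group, which is then assumed to vary like the other group. Leaving out APP.3 makes the APP group APP.4 alone, the library through which Gm25813, Gm25360 and Gm25939 entered the table. Without APP.3 there were 4 calls beside 3.27% of all features, without APP.4 there were 2 beside 2.6%, and without WT.1 or WT.2 there were 0 beside 0.81% and 0.729%.

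U1, which defines the 5′ end of the intron, was carried almost wholly by Gm22068. This row has the sequence of the named gene Rnu1a1, lies in an intron of Tex14 on the same strand, and is 1 of 7 annotated transcripts with identical letters. It was counted at 6229 (APP.3), 11011 (APP.4), 12238 (WT.1) and 7700 (WT.2). In CPM, APP.4 was the highest library and APP.3 the lowest, so the WT libraries lay inside the APP pair. The difference between the groups was 0.20 on the log2 scale (SE 0.20, adjusted p = 0.777, 95% interval -0.27 to 0.67). The libraries of a pair differed by more than counting error, with APP.4 at 1.66 times APP.3 (95% counting interval 1.61 to 1.71) and WT.1 at 1.28 times WT.2 (1.25 to 1.32).

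Gm22513 differs from Gm22068 by T60C alone, counting from 1 at the 5′ end of the RNA. It lies on chromosome 12 outside any other annotated gene, and no other annotated snRNA transcript shares its exact letters. It was counted at 1 (APP.3), 1169 (APP.4), 13 (WT.1) and 3 (WT.2). A single library therefore held nearly all of its counts, and the other APP library had fewer than either WT library. Its share of the U1 counts was 9.50% in APP.4 (exact 95% binomial interval 8.99 to 10.03) and 0.0158% in APP.3 (0.000401 to 0.0882), and 0.105% and 0.0385% in WT.1 and WT.2. The ratio of APP.4 to APP.3 was 1095 (counting interval 196 to 43287). Its adjusted p was 0.186 with all libraries. Its fitted log2 change of 6.54 was 7.53 without APP.3 and turned to -2.41 without APP.4, each with 1 library in the APP group.

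The other U1 rows were low. Gm22042, which holds the pairing letters and is closest to the variant gene Rnu1b1 (98.8% identity), was counted at 17 and 19 in the APP libraries and 5 and 8 in the WT libraries. Both APP libraries were above both WT libraries, by 1.83 on the log2 scale (SE 0.56, adjusted p = 0.213). Its APP.4 to APP.3 ratio was 1.05 (0.515 to 2.14), so the difference did not come from a single APP library. The adjusted p was 0.0425 by the exact test and 0.0287 by the likelihood ratio test. However, Gm22042 reached 10 counts in the 2 APP libraries only and so is in the table through them. This fixes in part that it is high there, and its values are a description. Gm23238, which overlaps an exon of AC134906.1 on the opposite strand, was counted at 19, 40, 31 and 19 in APP.3, APP.4, WT.1 and WT.2, and its groups overlapped (log2 change 0.64, SE 0.42, adjusted p = 0.609).

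The sum over the 9 U1 rows was 218 CPM (APP.3), 397 (APP.4), 281 (WT.1) and 220 (WT.2). It does not depend on how reads were placed among these rows, but reads placed on identical copies outside them are not in it. The APP mean was 307.5 ± 127 CPM and the WT mean 250 ± 43.5 CPM (SD, n = 2 each). The log2 change was 0.30 (SE 0.23, adjusted p = 0.687, 95% interval -0.23 to 0.83), and no family sum was called, beside 0.894% of the features in this fit. Without APP.3 it was 0.67 with an adjusted p of 1.23e-08 and would be called, beside 3.26% of features in that fit, and without APP.4 it was -0.20, in a fit that called 2.6%. Leaving Gm22513 out of the sum gave 0.21, so the spread of the pair was also that of Gm22068.

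U2, the snRNA of the branch point, was carried by Gm24950 and Gm23444, both on chromosome 11 outside other annotated genes. Gm24950 has the sequence of Rnu2-10, shared by 4 annotated transcripts, and was counted at 3503 (APP.3), 5468 (APP.4), 7055 (WT.1) and 5341 (WT.2). Gm23444 differs from it by G109C alone, a sequence shared by 2 annotated transcripts, and was counted at 2734, 2868, 4504 and 3354 in the same order. The 2 rows did not move together within the APP pair, since APP.4 was 1.46 times APP.3 for Gm24950 (counting interval 1.40 to 1.53) and 0.983 times for Gm23444 (0.932 to 1.04). Within the WT pair both were 1.07 to 1.08 times higher in WT.1. Gm23444 thus made up 43.8% of the joint counts for APP.3 (exact interval 42.6 to 45.1), 34.4% for APP.4 (33.4 to 35.4) and 39.0% and 38.6% for the WT pair. A difference between the groups was called for neither, with log2 changes of -0.07 (SE 0.15, adjusted p = 0.917) and -0.08 (SE 0.07, adjusted p = 0.727).

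A set of 3 low U2 copies, grouped after their values had been seen, also had APP.4 as the highest library. All 3 reached 10 counts in APP.4 alone and so are in the table only through that library, which fixes in part that they are high there. The values are therefore a description and no support for the pattern of Gm22513. Gm25813, on chromosome 8, carries C78T and G131C and was counted at 5 (APP.3), 148 (APP.4), 9 (WT.1) and 2 (WT.2). Gm25360, on chromosome 1, carries C78T, A95G, G109C and C154T and was counted at 58 in APP.4 and at 0 in the other 3 libraries. Gm25939, also on chromosome 1, carries T69C, C78T and G109C and was counted at 22 in APP.4, 0 in APP.3 and 1 in each WT library. In each of them APP.4 stood apart from its own pair as well as from WT. Of the U2 copies compared base by base, these 3 carry C78T, while Gm23444 and Gm26316 do not. Gm26316, which differs from Gm24950 by C170T alone, was counted at 3, 7, 11 and 7.

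Together the copies with C78T made up 2.64% of the U2 counts in APP.4 (exact interval 2.31 to 3.0), against 0.0795% in APP.3 (0.0258 to 0.185), 0.0857% in WT.1 (0.0411 to 0.158) and 0.0343% in WT.2 (0.00708 to 0.10). The copies were in the table through APP.4 alone, so these intervals describe the shares and are no test of a difference. The adjusted p-values of the 3 copies with all libraries were 0.208, 0.246 and 0.392 for Gm25813, Gm25360 and Gm25939. Without APP.3, when the APP group is APP.4 alone, their log2 changes were 5.08, 9.11 and 4.64. Without APP.4 they were 0.33 for Gm25813 and -3.05 for Gm25939, and Gm25360 had no count. The intervals of the shares cover counting error only, since the reads carry no molecular identifiers, and reads that do not span a differing base cannot be told apart between the copies.

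**Figure D2:**
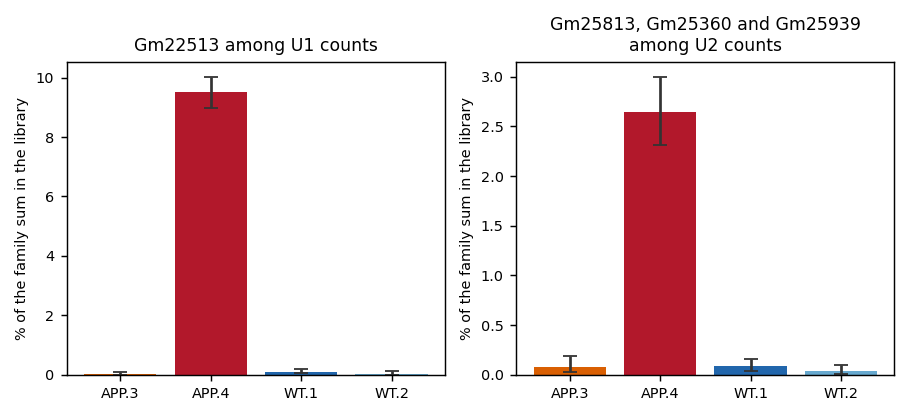
Share of each library's U1 counts on Gm22513 (left) and of its U2 counts on Gm25813, Gm25360 and Gm25939 together (right), in percent, as bars from 0 with exact 95% binomial intervals. The shares in APP.4 are 9.50% and 2.64%, and those in the other 3 libraries are at most 0.105% and 0.0857%, the right-hand copies being in the table through APP.4 alone.

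The sum over the 8 U2 rows was 217 CPM (APP.3), 279 (APP.4), 265 (WT.1) and 247 (WT.2). The WT pair lay inside the APP pair, with means of 248 ± 43.8 CPM in APP and 256 ± 13.2 CPM in WT (SD, n = 2 each). The log2 change was -0.05 (SE 0.11, adjusted p = 0.921, 95% interval -0.30 to 0.20). Gm26108, an X-linked copy at 91.0% identity with Rnu2-10, was counted at 43, 55, 77 and 35 in APP.3, APP.4, WT.1 and WT.2, and its widest ratio was in the WT pair, at 1.77 (counting interval 1.18 to 2.73).

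U4, which holds U6 inactive until the spliceosome is activated, was represented by the neighbours Gm24407 and Gm24265 on chromosome 5, which differ by A88G and A99C. Gm24407 was counted at 110 (APP.3), 202 (APP.4), 263 (WT.1) and 167 (WT.2). Gm24265 was counted at 97, 133, 161 and 80 in the same order. For both rows APP.4 was the highest library in CPM, and the groups overlapped (log2 changes -0.05 and 0.36, SE 0.25 each, adjusted p = 0.963 and 0.640). Gm24265 made up between 32.4% of their joint counts in WT.2 (exact interval 26.6 to 38.6) and 46.9% in APP.3 (39.9 to 53.9). Summed with Gm22116, a diverged copy 51 edits from Gm24407, in a sum chosen after the values had been seen, U4 differed by 0.11 (SE 0.21, adjusted p = 0.906).

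U6, the catalytic snRNA, was spread thinly over 22 rows, of which 17 have the same letters. Those letters are carried by 43 annotated transcripts, and the named gene Rnu6 is 1 of the 17 rows. Although no read can tell the 17 apart by its letters, their counts over the libraries ran from 22 to 127, with a median of 42. Gm22246, on chromosome 12, was the highest at 23, 31, 41 and 32 in APP.3, APP.4, WT.1 and WT.2, and Rnu6 on chromosome 17 had 6, 13, 11 and 11. The counts of the 17 rows departed from an equal split with a chi-square of 18.3 per degree of freedom, while the split over rows differed little between libraries, at 1.16 per degree of freedom. The unequal split among identical rows was thus much the same in every library.

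The sum over all 22 U6 rows was 8.10 CPM (APP.3), 8.72 (APP.4), 9.01 (WT.1) and 7.93 (WT.2). The means were 8.41 ± 0.437 CPM in APP and 8.47 ± 0.767 CPM in WT (SD, n = 2 each), and the log2 change was -0.01 (SE 0.13, adjusted p = 0.988, 95% interval -0.31 to 0.29). Both pairs agreed within counting error for this sum, with APP.4 at 1.08 times APP.3 (counting interval 0.900 to 1.29) and WT.1 at 1.14 times WT.2 (0.973 to 1.33). Among rows with 10 counts in every library, the most negative log2 changes were those of the U6 rows Gm22911 and Gm26317. Gm22911, which differs from Gm22246 at 6 positions, was counted at 18, 20, 41 and 30 in APP.3, APP.4, WT.1 and WT.2 and was lower in both APP libraries (log2 change -0.49, SE 0.35, adjusted p = 0.641). Gm26317, 1 of the 17 rows with the same letters, was counted at 15, 19, 29 and 33 (-0.48, SE 0.40, adjusted p = 0.707). Its counts therefore depend on how reads were placed among those rows. Gm22827, at 89.4% identity with Rnu6, was counted at 15, 39, 25 and 14 (0.87, SE 0.50, adjusted p = 0.548), and Gm25869, with the shared letters, at 18, 13, 13 and 14 (0.59, SE 0.49, adjusted p = 0.706).

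**Figure D3:**
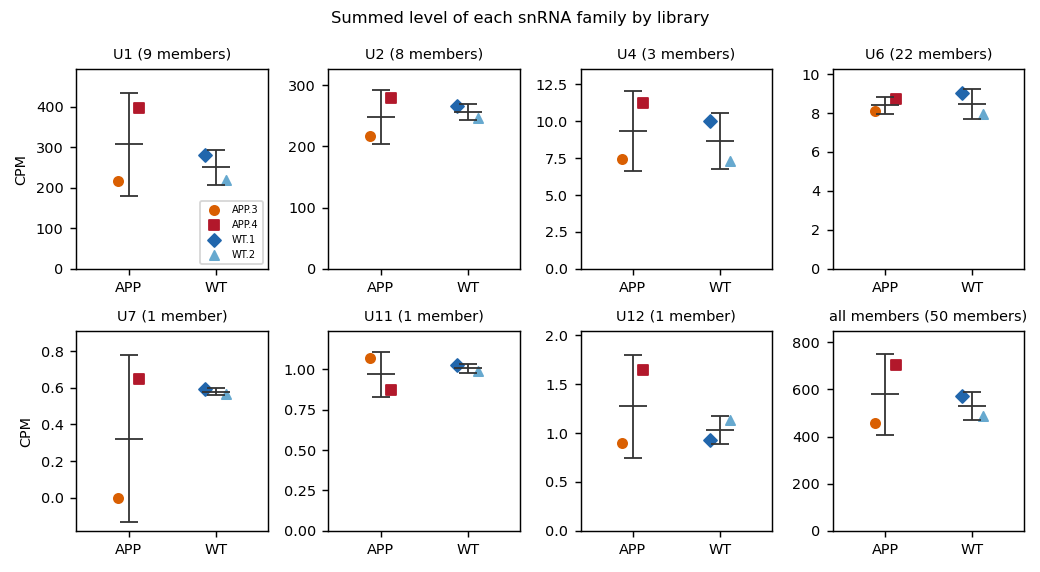
CPM summed over the rows of each snRNA family, 1 panel per family, with a marker per library and the mean ± SD of each group (n = 2), and each vertical axis including 0. In U1, U2, U7 and U12, and over all members, APP.4 is the highest library and APP.3 the lowest.

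The minor spliceosome was represented by Rnu11, Rnu12 and the unnamed rows Gm22710 and Gm25541. The unnamed rows were read here as U4atac and U6atac from their letters, with no named reference to compare, and stayed unassigned by similarity. Rnu11, which recognises the 5′ splice site of minor introns and overlaps an exon of Gm28872 on the opposite strand, was counted at 31 (APP.3), 27 (APP.4), 45 (WT.1) and 35 (WT.2). Its groups overlapped, with a log2 change of -0.05 (SE 0.31, adjusted p = 0.973). Rnu12, which pairs with the branch point of minor introns, was counted at 26, 51, 41 and 40, and the WT libraries lay between the APP libraries (0.31, SE 0.35, adjusted p = 0.809).

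Gm22710 was counted at 16, 18, 25 and 16 in APP.3, APP.4, WT.1 and WT.2 and differed by 0.14 (SE 0.42, adjusted p = 0.939). It lies within an exon of 2900060B14Rik on the same strand, so reads of the 2 cannot be told apart. Gm25541 was counted at 15, 14, 35 and 16, with WT.1 the highest (-0.38, SE 0.46, adjusted p = 0.821). Per kilobase the 4 minor rows lay between 4.31 CPM for Gm22710 and 7.62 for Rnu12, an order in which Rnu12 and Rnu11, at 7.37, differed by less than the spread between libraries.

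U7, the histone mRNA processing snRNA, was represented by a single diverged copy, Gm27723, at 77.4% identity with Rnu7 and inside an intron of Popdc3 on the same strand. It was counted at 0 (APP.3), 20 (APP.4), 26 (WT.1) and 20 (WT.2). The library at 0 was an APP library, and the other APP library was close to the WT libraries. The counting interval of the APP.4 to APP.3 ratio started at 4.62. The adjusted p was 0.806 with all libraries and 0.00385 without APP.4, when the APP group is APP.3 alone.

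Diverged copies were counted mainly inside other genes. Of the 50 rows, 16 (32.0%) overlap another gene on the same strand, against 312 of the 1385 annotated snRNA genes (22.5%). Under a stricter match of 90% identity over 80% of the reference, and leaving out the rows read as U4, U4atac and U6atac, 13 rows were diverged, a set chosen after the values had been seen. Of these, 10 lie in introns of other genes on the same strand, all of them protein-coding, against 5 of the other 37 rows, where the host of Gm25939 is a lincRNA and the other hosts are protein-coding. Hosts of these 10 diverged rows are Map2 for Gm25411, Rbfox2 for Gm24056, Pcdh9 for Gm23509, Ttc3 for Gm23692 and Popdc3 for Gm27723. The remaining hosts are Fam19a2, Slc35f4, Ranbp9, Stk38 and Tbl1x. Reads of an intron of the host and reads of such a copy cannot be told apart where the letters are the same. The 13 rows had between 19 and 96 counts over the libraries, with log2 changes from -0.81 to 1.63 and a median of 0.41, and none was called. Of these, Gm24056, Gm23887 and Gm23121, at 1.12, 0.83 and 1.45, reached 10 counts in APP libraries only. Gm26064, at -0.009, did so in WT.1 only. Entry to the table thus fixes their direction, and with it the median, in part.

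Gm24819, a diverged row on chromosome 13 outside other genes, had the largest positive log2 change among rows with 10 counts in every library. It was counted at 54 (APP.3), 13 (APP.4), 18 (WT.1) and 11 (WT.2). Here APP.3 stood apart, and APP.4 was 0.226 times APP.3 (counting interval 0.113 to 0.419). The log2 change was 1.63 (SE 0.65, adjusted p = 0.354), and 2.35 without APP.4, when the APP group is APP.3 alone. Gm24152, a U1 copy at 79.7% identity, was counted at 13, 27, 20 and 14 (0.63, SE 0.47, adjusted p = 0.666), and Gm23692 at 12, 11, 20 and 17 (-0.28, SE 0.46, adjusted p = 0.883).

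Agreement within each pair was measured as the ratio of its libraries on scaled counts, for rows with at least 10 counts in the pair. In the APP pair 15 of 48 rows differed by more than a factor of 2, against 5.96% of all features. In the WT pair 4 of 47 did, against 4.18% of all features. Among the 15, Gm25813, Gm25360, Gm25939 and Gm23121 reached 10 counts in APP.4 alone. Most snRNA rows are low, and counting error is wider for low features. Of features with fewer than 100 counts in the pair, 22.6% passed that factor in APP and 17.8% in WT, against 13 of 41 and 4 of 41 snRNA rows (31.7% and 9.76%). Of those with at least 100 counts, 0.762% and 0.276% of all features did, against 2 of 7 snRNA rows in APP, Gm22513 and Gm25813, and 0 of 6 in WT.

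The exact counting interval of the ratio left out 1 for 13 rows in the APP pair and for 6 in the WT pair, against 34.2% and 23.3% of all features. In APP these were Gm22068, Gm24950, Gm22513, Gm24407, Gm25813, Rnu12, Gm23238, Gm22827, Gm27723, Gm25360 and Gm25939, all higher in APP.4, and Gm24819 and Gm24205, both higher in APP.3. Gm24205, a U6 row with the shared letters inside an intron of March1 on the opposite strand, had 16 counts against 3 in APP.3 and APP.4, and 11 and 12 in WT. In WT the rows were Gm22068, Gm24950, Gm23444, Gm24407, Gm24265 and Gm26108, all higher in WT.1. The median ratio over the rows was 1.27 in both pairs, while the median over all features was 1.0 in both. In the APP pair 32 of 48 rows were higher in APP.4, against 9159 of 18101 features. In the WT pair 34 of 47 were higher in WT.1, against 9174 of 18219 features. Of the snRNA rows, 5 are in the table through APP.4 alone and 8 through WT.1 alone, which fixes these counts in part.

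Over the 50 rows, Pearson's r of log2(CPM + 0.1) was 0.985 for the WT pair and 0.769 for the APP pair. APP.3 was closer to the WT libraries, at 0.951 and 0.955, than to APP.4. Spearman's rank correlation was 0.932 for the WT pair and 0.476 for the APP pair, and 0.765 and 0.811 for APP.3 with WT.1 and WT.2. These values describe rows that share libraries and families, and a few abundant rows weigh on Pearson's r. Rows in the table through 1 library alone, 5 through APP.4 and 8 through WT.1, are fixed in part to differ within the pair.

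**Figure D4:**
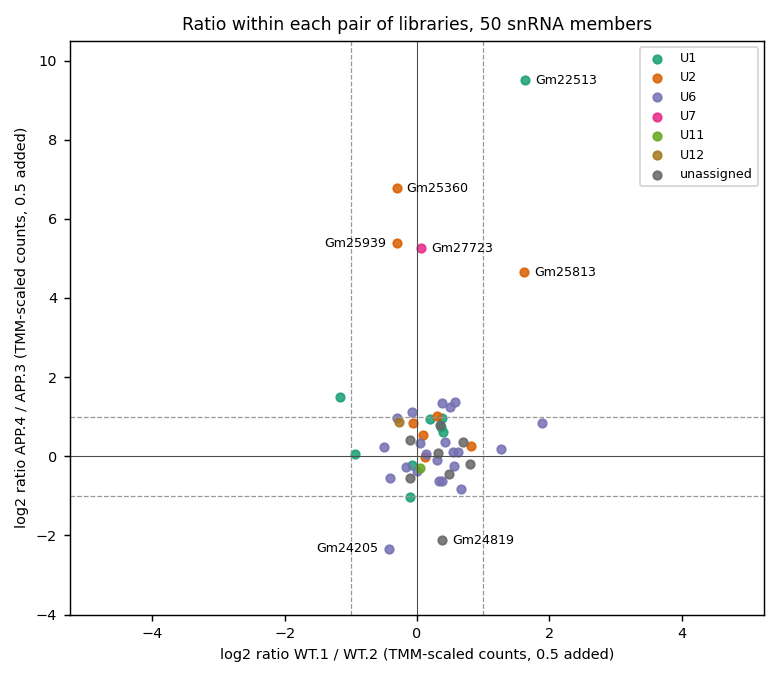
Log2 ratio of WT.1 to WT.2 (horizontal) against log2 ratio of APP.4 to APP.3 (vertical) for the 50 snRNA rows, from scaled counts with 0.5 added so that libraries at 0 can be drawn, coloured by family, with dashed lines at a factor of 2. Gm22513, Gm25360, Gm25939, Gm27723 and Gm25813 lie far above the other rows and Gm24819 and Gm24205 below them, while no row lies as far out in the horizontal direction.

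Genes for the proteins of the snRNPs and for the making of snRNAs were read from the same fit, in 9 lists with 111 measured genes. Of these 1 was called, higher in APP, and 0 were called lower, against 0.843% and 0.0381% of all features. At an unadjusted p under 0.05 there were 7, or fewer in proportion than the 12.1% of all features. The median log2 change over the 111 genes was -0.03, and 44 of them had a positive value.

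The called gene was Snapc1, a subunit of the SNAPc complex that binds snRNA promoters and recruits RNA polymerase II or III. It was counted at 909 (APP.3), 882 (APP.4), 810 (WT.1) and 625 (WT.2). Both APP libraries were above both WT libraries, at 29.9 ± 2.02 CPM against 18.03 ± 0.566 CPM (SD, n = 2 each). Snapc1 rose by 0.73 on the log2 scale (SE 0.09, adjusted p = 0.00685), and by 0.66 to 0.80 when each library was left out in turn. Of the other 24 genes of transcription and 3′ processing, none was called with all libraries. Ints7, an Integrator subunit, was counted at 623, 461, 1217 and 872 (-0.53, SE 0.15, adjusted p = 0.190).

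In the lists of snRNP proteins no gene was called. The 8 Sm core genes ranged from -0.14 for Snrpb (SE 0.08, adjusted p = 0.570) to 0.27 for Snrpd1 (SE 0.13, adjusted p = 0.445). The 3 U1 proteins ranged from -0.03 for Snrpa (SE 0.11, adjusted p = 0.95) to 0.23 for Snrpc (SE 0.13, adjusted p = 0.556). The 12 U2 proteins had a median of -0.02, with Sf3b4 at 0.29 (SE 0.12, adjusted p = 0.396) and Sf3b6 at 0.14 (SE 0.10, adjusted p = 0.647). The 16 U4/U6 and U5 proteins had a median of -0.03, with Eftud2, the U5 GTPase, at -0.14 (SE 0.07, adjusted p = 0.475) and Prpf31 at 0.13 (SE 0.09, adjusted p = 0.593). None of these genes reached the fold change cut-off.

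The 14 genes of the U6 Lsm ring and U6 factors had a median of 0.01 and lay between -0.13, for Lsm3, and 0.17. The 8 proteins of the minor spliceosome had a median of 0.05, with Rnpc3 at 0.10 and Snrnp35 at 0.13. Of the 4 U7 proteins, Lsm11, part of the U7-specific ring, was counted at 752 (APP.3), 645 (APP.4), 1221 (WT.1) and 1107 (WT.2) (-0.34, SE 0.11, adjusted p = 0.264), and Zfp473 was at 0.46 (SE 0.30, adjusted p = 0.602). Both APP libraries were below both WT libraries for Lsm11. The 21 genes of export, SMN assembly and import had a median of -0.05, with Wrap53, which guides RNAs to Cajal bodies, at 0.40 (SE 0.17, adjusted p = 0.396) and Gemin7, of the SMN complex, at -0.34 (SE 0.16, adjusted p = 0.457).

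**Figure D5:**
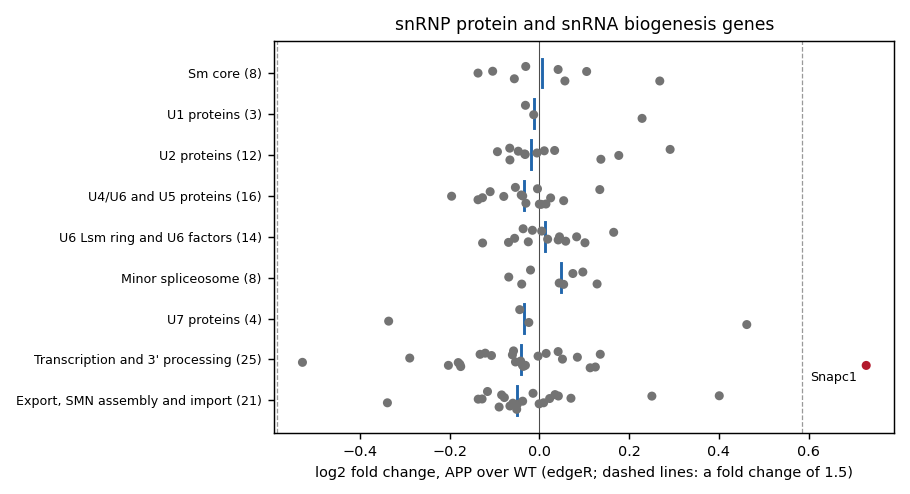
Log2 fold change of APP over WT (horizontal) for the 111 genes of 9 lists (rows, number of genes in brackets), with 1 point per gene, a bar at each list's median and dashed lines at a fold change of 1.5. Snapc1, at 0.73, is the only point past the dashed lines, and the list medians lie between -0.05 and 0.05.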

How the data were processed

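Cortex RNA of 2 APPswe/PS1ΔE9 and 2 WT mice was analysed, each library from a separate mouse. The labels name a Qiagen RNeasy kit and the study's methods TRIzol. The authors removed ribosomal RNA with a ribo-zero kit, discarded read pairs that matched SILVA, aligned the rest with FANSe2 to Ensembl mouse RNAs allowing 7 mismatches, kept transcripts with at least 10 reads, and deposited whole, unnormalized counts per transcript. How reads that fit several copies were placed is not given in the sources used here. The submitters' processing notes also list CASAVA 1.8, edgeR and hg19. The deposited fold changes, mean CPM, p-values and FDR, and 4 columns of log2 CPM per library, were not used. The WT columns match their mice by number, the APP columns only their group.

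Counts were summed per gene of GENCODE M21 (36858 of 37539 transcripts matched), giving 18386 features with no further filter. They were tested in R 4.3.3 with edgeR 4.0.16 (quasi-likelihood test, TMM, no covariate, Benjamini-Hochberg over all features, common dispersion 0.00778) and DESeq2 1.42.0, after a check on simulated counts. Families were assigned with blastn 2.17.0 (best hit, at least 70% identity over 50% of the reference). CPM uses TMM library sizes. Other values were computed in Python 3.11.15 with scipy 1.17.1, and intervals are 95%.

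Rows were named where they carry an snRNA symbol, are Gm22513, Gm25360 or Gm25813 (which the study singled out on these samples, so that their direction has no independent support here), have 1 of the 10 highest mean CPM, 1 of the 5 largest rises or falls with 10 counts in every library, or 1 of the 5 largest ratios of a pair with at least 50 counts. In the gene lists, called genes or otherwise the 2 of lowest adjusted p were named. Gm22042, Gm25939, Gm27723, Gm24205, Gm26316, Gm22710, the diverged copies and Ints7 were chosen after their values were seen. The members and lists were chosen with earlier results of these data known. The sums without the T60C and C78T copies, over U4 and over all members, and the split of pairs by depth, were later additions, made once the values were known. The sequence of a further row is not reported here.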

Additional observations from a re-analysis of the deposited data

How the results depend on the processing

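The 0 snRNA calls became 4 under edgeR's exact and likelihood ratio tests and 1 (Gm22513) with transcripts in place of gene sums, and stayed 0 under DESeq2, library totals, scaling over protein-coding features, 10 counts in every library and a fold change of at least 2. With a library left out in turn, the lone library was assumed to vary like the other group. The calls were then of Gm22513, Gm25813, Gm25360 and Gm25939 without APP.3, and of Gm24819 and Gm27723 without APP.4. Gm25813, Gm25360 and Gm25939 are in the table through APP.4 alone, which fixes in part their outcome in the fit without APP.3. The count of family sums called ran from 0 to 1. Family log2 changes then ran from -0.20 to 0.67 for U1, -0.24 to 0.12 for U2, -0.0958 to 0.0855 for U6, -7.39 to 0.16 for U7, -0.207 to 0.0882 for U11 and -0.19 to 0.68 for U12, and the snRNA share in APP over WT from 0.879 to 1.31. Single rows turned direction too, from -0.21 to 0.52 for Gm22068, -0.36 to 0.18 for Gm24950, -2.41 to 7.74 for Gm22513, -0.50 to 0.28 for Gm24407, -0.10 to 0.72 for Gm26108, -0.71 to 0.10 for Gm25541, -3.05 to 4.64 for Gm25939, -0.19 to 0.68 for Rnu12 and -0.207 to 0.0883 for Rnu11, as did Snrpa (-0.0944 to 0.0422), Lsm3 (-0.27 to 0.0453), Rnpc3 (-0.0289 to 0.21) and Snrnp35 (-0.0827 to 0.32). The 1 pathway call, Snapc1, ended at a fold change of at least 2 (0 calls), and 1 to 2 were called with a library left out. Of 48 rows in APP and 47 in WT, 26 and 12 passed a pair ratio of 1.5, and 7 and 1 a ratio of 4. The share of all features past these ratios was not computed, so the counts have no background. Gm25813, Gm25360 and Gm25939, past a ratio of 4 in APP, are in the table through APP.4 alone. At a ratio of 2 there were 1 and 0 among the 6 family sums, and 2 of 7 and 0 of 6 rows with at least 100 counts in the pair. The causes were not tested. Gm25360 has no value without APP.4, when no library holds a count. No paired analysis was possible because the numbers of the APP columns are not those of the labels. Depth limits the low rows most, since 36 of the 50 have fewer than 100 counts in all.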
